A study of Mus musculus with 9 samples.

Results

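Whole-lung RNA of BALB/c mice, an inbred laboratory strain, was compared between a chronic asthma model and normal animals. The members are the 3 libraries labelled asthma and the 3 labelled control, 6 of the 9 samples of the series, chosen by their group labels alone. Control lungs came from normal mice and asthma lungs from asthmatic mice, and mice of both groups received saline by mouth from day 14, so the oral vehicle is shared. The labels give neither how the disease was induced nor the sensitising agent, age or sex, which limits what the model stands for. The other 3 libraries, from asthmatic mice given the herbal formula BSYQF, entered the filter of low counts, the scaling and the estimate of the spread. They were not part of the contrast. The labels call the libraries replicates without tying each to a separate mouse, and the spread that the p-values are set against is that between libraries, part of which may be technical.

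Asthma is a chronic inflammation of the airways in which epithelial cells, innate and adaptive immune cells and structural cells of the airway wall change together. In mouse models it is best known for mucus-producing goblet cells, alternatively activated macrophages and antibody-secreting plasma cells. Secretory cells make their proteins through the endoplasmic reticulum, whose chaperones follow the load of new protein, and dividing cells turn on the replication and mitosis genes together. The description below goes past the goblet, macrophage and plasma cell markers to the rest of the genome. The tissue label was borne out by lung genes: the 14 alveolar epithelial markers summed to 27191 to 35602 CPM in the 6 libraries (CPM, counts scaled to a common library size) and the 13 airway epithelial markers to 24809 to 50909 CPM. Markers of thyroid, oesophagus and liver summed to at most 5.08 CPM in any of these libraries.

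Total counts were 18087547, 16595243 and 18201541 in control replicates 1, 2 and 3 and 17763095, 16286385 and 22819199 in asthma replicates 1, 2 and 3. Between 15476 and 16244 genes had a count. The first principal component of these 6 libraries (67.2% of the variance) placed the controls at -48.8, -52.9 and -40.8 and the asthma libraries at 56.5, 80.4 and 5.63. Asthma replicate 3 thus stood between the other asthma libraries and the controls, and asthma replicate 2 was the furthest out. Transcripts of the mitochondrial genome took 2.19 to 3.46% of the counts in control and 5.05, 10.3 and 3.77% in asthma. RNA quality was not measured in the files used here, and its part in the results was not tested.

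Of 14739 genes tested, 1869 were called (12.7%), 1213 higher in asthma (8.23%) and 656 lower (4.45%), at an adjusted p under 0.05 from edgeR's quasi-likelihood test, and a gene is said to rise or fall below only if it was called. The change was at least 2-fold for 716 of the higher and 296 of the lower genes, and at least 4-fold for 246 and 87. The median log2 fold change of the called genes was 1.12 upward and -0.96 downward, while that of all tested genes was 0.02. Genes called higher held 6.35, 5.93 and 6.51% of all counts in the control libraries and 15.8, 15.5 and 10.2% in the asthma libraries. Genes called lower held 8.48, 9.28 and 8.25% in control and 4.03, 3.14 and 5.62% in asthma. The 6 libraries did not overlap between the groups for 5957 of the 14739 genes (40.4%). Among the called genes asthma replicate 3 was the asthma library nearest to control in 1084 of the 1213 higher and 568 of the 656 lower ones. Leaving out control replicate 1, 2 or 3 gave 438, 182 or 357 calls, leaving out asthma replicate 1, 2 or 3 gave 171, 248 or 4262, and leaving out BSYQF replicate 1, 2 or 3 gave 2646, 944 or 2232. The number of calls therefore hung on single libraries, and the libraries whose removal ended a call are named beside the genes below. Calls rose in share with expression level, from 6.34% higher and 2.48% lower in the fifth of genes with the lowest levels to 10.2% and 8.07% in the fifth with the highest.

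**Figure D1:**
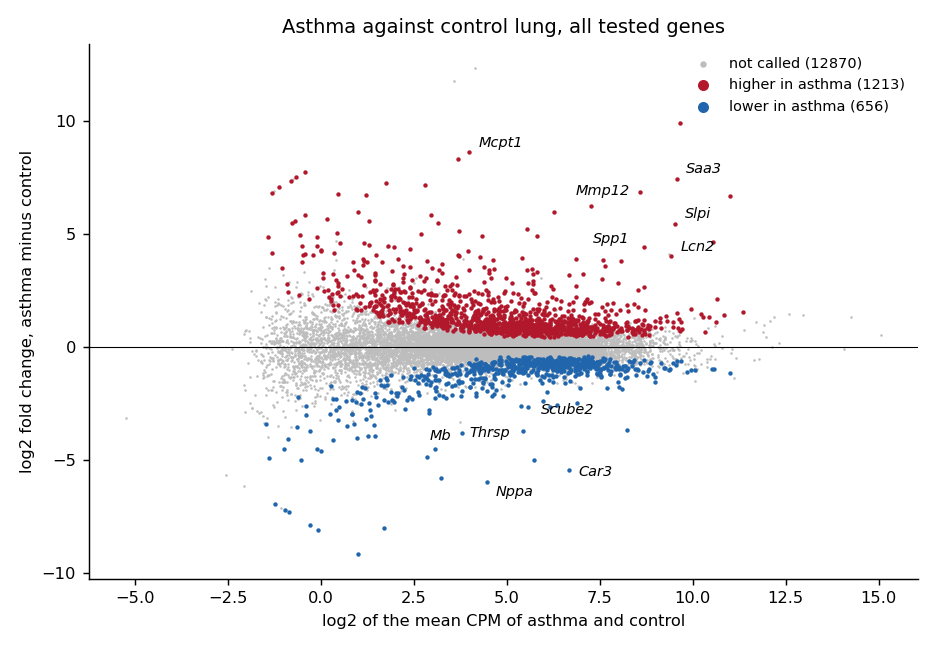
Each point is 1 of the 14739 tested genes, with the log2 of its mean CPM over asthma and control on the x axis and its log2 fold change, asthma minus control, on the y axis. The 1213 genes called higher are red, the 656 called lower are blue and the others grey, and the labelled genes are described in the text.

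The direction of change followed transcript length. Genes were matched by symbol to GENCODE vM21 for 14683 of the 14739 tested and split into 10 equal groups by the total length of their exons. In the group with the shortest exons, 96 to 1716 bases, the median log2 fold change was 0.40, with 15.2% of genes called higher and 2.25% lower. In the group with the longest exons, 9804 to 123179 bases, it was -0.30, with 3.06% higher and 10.3% lower. Across genes, which are not independent replicates, the rank correlation of the log2 fold change with length was -0.32. The shortest group stood 0.37, 0.49 and 0.24 above the control mean in asthma replicates 1, 2 and 3 on the log2 scale, and at -0.01, -0.07 and 0.10 in the controls. All 3 asthma libraries thus had the pattern, and control replicate 3 had one of the same sign and smaller size. By rank, the deviations correlated with length at -0.29, -0.30 and -0.29 in asthma replicates 1, 2 and 3. Control replicate 3 was close to them at -0.27, and control replicates 1 and 2 were at 0.09 and 0.17. A fit with an offset for length in each library called 1534 of 14683 genes (10.4%), 983 higher (6.69%) and 551 lower (3.75%), of which 1338 were also called without it. Because short and long genes differ in function, the count with this offset is given beside many of the gene groups below. Whether the pattern comes from RNA quality, library preparation or the animals was not tested.

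**Figure D2:**
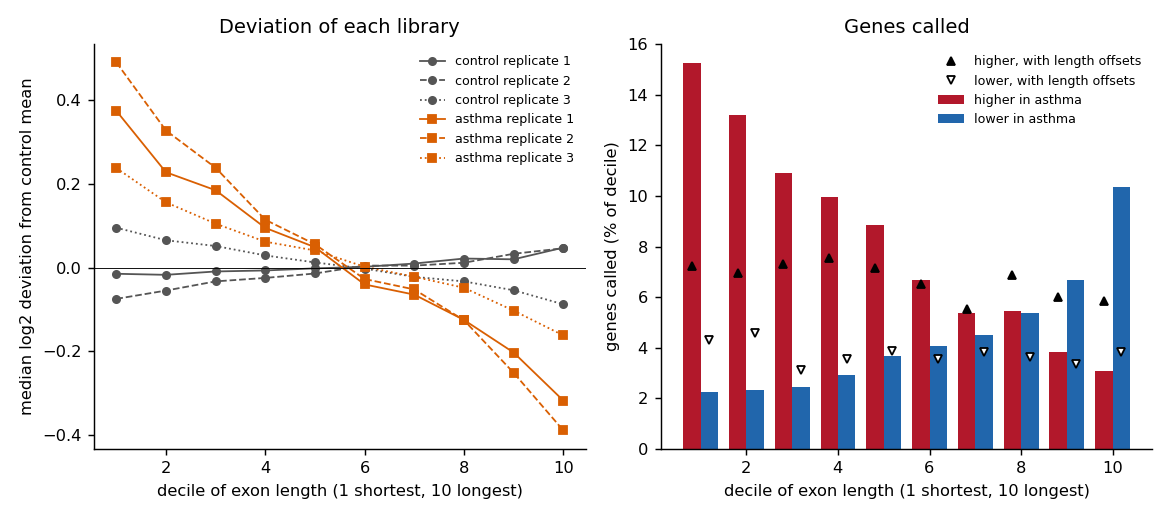
The left panel plots, for 10 equal groups of genes from the shortest to the longest exons, the median log2 deviation of each of the 6 libraries from the control mean, and the right panel the percentage of genes called higher and lower, as bars without and triangles with the length offset. The asthma lines fall from left to right, asthma replicate 3 least, and the line of control replicate 3 falls less steeply still. The share lower passes the share higher only from the 9th group on, while the triangles stay nearly level.

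Among called genes with at least 5 CPM and no overlap, the largest rises outside the classic lists included secreted proteases, their inhibitors and defence proteins. Timp1, an inhibitor of matrix metalloproteinases, was at 5.35, 2.63 and 4.15 CPM in control and 459, 396 and 60.7 CPM in asthma, a log2 fold change of 6.23 ± 0.82 (SE, adjusted p = 0.00715), and was called in all 9 fits that left out 1 library. Mcpt1, a chymase of mucosal mast cells, had 2, 2 and 0 counts in control and 369, 1037 and 100 in asthma, and Mcpt2, another mast cell protease, had 5, 4 and 5 in control and 167, 487 and 76 in asthma. Rnase2a, a ribonuclease of the eosinophil-associated family, had 2, 0 and 2 counts in control and 483, 520 and 334 in asthma. The controls of these last genes rest on so few counts that no fold is given, and each belongs to a family of close copies. Dcstamp, a membrane protein of macrophage fusion, was at 0.432, 0.527 and 0.213 CPM in control and 9.51, 26.3 and 2.02 CPM in asthma (4.99 ± 1.04, adjusted p = 0.0202). Psap, the precursor of the saposins that help break down lysosomal lipids, was among the called genes with the highest levels, at 1026, 974 and 1010.2 CPM in control and 3174, 3077 and 1783 CPM in asthma (1.42 ± 0.32, adjusted p = 0.0243). Calls were lost for Mcpt1, Mcpt2, Dcstamp and Psap without any control or asthma replicate 1 or 2 (adjusted p = 0.0595 to 0.108) and for Rnase2a without control replicate 2 or 3 or asthma replicate 2 (adjusted p = 0.0504 to 0.0543).

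Other genes of secreted proteins named by size or p-value went both ways. From here on the log2 fold change and its SE stand in parentheses. Bpifa1, a secreted antimicrobial protein of the upper airways, fell from 434, 609 and 621 CPM in control to 17.5, 30.8 and 83.9 CPM in asthma (-3.65 ± 0.53, adjusted p = 0.00825). Slpi encodes a secreted inhibitor of neutrophil elastase made by airway epithelium. It was at 37.9, 33.3 and 28.5 CPM in the control libraries and 1635, 2207 and 509 CPM in the asthma libraries, a log2 fold change of 5.45 ± 0.51 (adjusted p = 0.00238). Lcn2, which encodes lipocalin 2, a protein that binds bacterial iron carriers, was at 113, 60.0 and 67.2 CPM in control and 1782, 1372 and 709.9 CPM in asthma (4.005 ± 0.41, adjusted p = 0.00238). In both genes the lowest asthma library, replicate 3, lay well above the highest control, though a lack of overlap was a condition of their choice. Saa3, a serum amyloid A made outside the liver, went from 17.7, 3.92 and 4.36 to 2351, 1637 and 531 CPM (7.44 ± 1.02, adjusted p = 0.00813), and Saa1 had only 4, 0 and 1 counts in control against 413, 145 and 194 in asthma. The Saa genes are close copies, and how reads shared between them were counted is not given in the sources used here. Pigr, the receptor that carries dimeric antibody across epithelium, was at 92.0, 91.2 and 150.2 CPM in control and 537, 801 and 545 CPM in asthma (2.497 ± 0.27, adjusted p = 0.00238). Lrg1, a leucine-rich glycoprotein of the acute phase, rose by 2.85 ± 0.31 and the acid glycoprotein gene Orm2 by 4.33 ± 0.58. The antiproteinase Serpina3n rose by 3.22 ± 0.40 and the ferroxidase ceruloplasmin, Cp, by 1.65 ± 0.19. Each of the genes with values in this paragraph so far was called in all 9 fits that left out 1 library.

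Among the called genes at high levels, Chil1, a chitinase-like protein, was at 659, 514 and 634 CPM in control and 2921, 2985 and 1940.5 CPM in asthma (2.12 ± 0.23, adjusted p = 0.00241). Sftpd, the collectin surfactant protein D, was at 895, 686 and 799.8 CPM in control and 2106, 1737 and 2137 CPM in asthma (1.33 ± 0.23, adjusted p = 0.01). All asthma libraries lay above all controls in both, as their choice required, and for Sftpd asthma replicate 3 was the highest of all 6 libraries. Sftpc, the surfactant protein that marks alveolar type 2 cells, did not pass (-0.11 ± 0.29, adjusted p = 0.819). Of the 14 alveolar markers 1 rose and 2 fell, beside 8.23% and 4.45% of all genes. The Sftpd call was lost without control replicate 2 (adjusted p = 0.0554), and Chil1 was called in all 9 fits. In coordinates of mm10 (GENCODE vM21), the protein-coding genes Slpi, Lcn2, Pigr, Chil1 and Sftpd lie at chr2:164354070-164389095, chr2:32384633-32388252, chr1:130826684-130852249, chr1:134182176-134190181 and chr14:41172214-41185149.

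**Figure D3:**
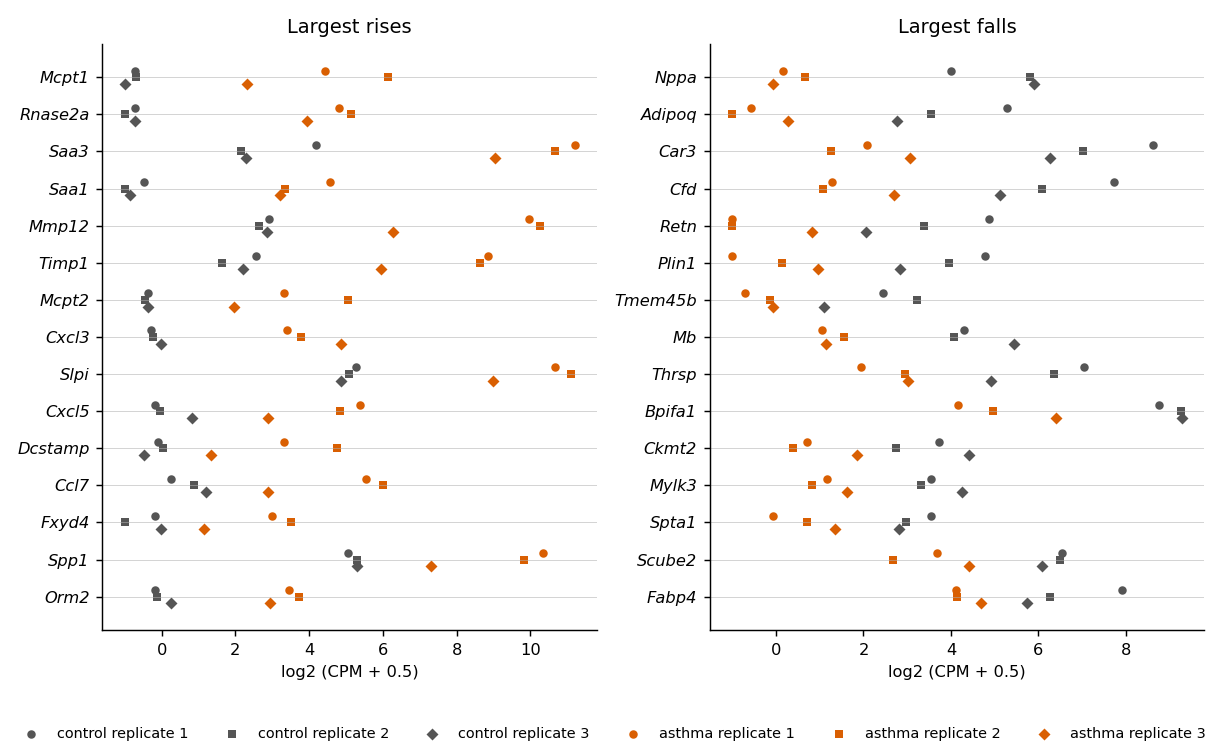
For the 15 largest rises and the 15 largest falls among called genes that reach 5 CPM in 1 group and whose groups do not overlap, outside the classic lists, the log2 of CPM plus 0.5 is plotted for each library, control in grey and asthma in orange, with a marker shape per replicate. The choice of genes puts the asthma points to 1 side in every row, and in most rows asthma replicate 3 is the asthma point nearest to control.

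Pattern recognition receptors of myeloid cells rose in part. In a list of toll-like receptors, C-type lectins and scavenger receptors, 12 of 30 tested members rose and none fell, with a median log2 fold change of 0.74. The list does not hold every lectin: in the C-type lectin family taken by gene symbol, 7 of 22 tested rose and 2 fell (5 and 3 with the length offset). Msr1, the class A scavenger receptor, was at 6.11, 4.45 and 5.001 CPM in control and 115, 97.6 and 28.5 CPM in asthma (3.95 ± 0.48, adjusted p = 0.0042). Clec4n, which encodes dectin-2, a receptor for fungal and mite glycans, was at 13.5, 8.07 and 9.04 CPM in control and 144, 92.8 and 46.9 CPM in asthma (3.21 ± 0.41, adjusted p = 0.0042). The groups did not overlap for either. Cd14, the co-receptor for bacterial lipopolysaccharide, rose by 2.05 ± 0.26 and Clec5a, an activating lectin of monocytes, by 2.26 ± 0.30. Dectin-1, Clec7a, rose by 1.89 ± 0.45 and the oxidised lipoprotein receptor Olr1 by 2.35 ± 0.51. Of the toll-like receptors only Tlr7 (0.83 ± 0.21) and Tlr13 (1.40 ± 0.35), both sensors of RNA in endosomes, passed among the 11 listed, while Tlr4, at -0.06 ± 0.25 (adjusted p = 0.885), and Tlr2, at 0.39 ± 0.23 (adjusted p = 0.255), did not. The count of the list ran from 4 (without control replicate 2 or asthma replicate 1) to 13 (without asthma replicate 3 or BSYQF replicate 1) when 1 library was left out. Msr1, Clec4n, Cd14 and Clec5a were called in all 9 of these fits, and the call was lost for Clec7a, Olr1 and Tlr13 without any control or asthma replicate 1 or 2 (adjusted p = 0.0596 to 0.132) and for Tlr7 without any control, asthma replicate 1 or 2 or BSYQF replicate 2 (adjusted p = 0.0513 to 0.127).

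Several genes known from monocytes and macrophages were named by their p-value, size or family. Cybb, the membrane subunit of the phagocyte NADPH oxidase, was at 70.1, 80.0 and 72.8 CPM in control and 170.2, 193 and 188 CPM in asthma (1.31 ± 0.14, adjusted p = 0.00238). C3ar1, the receptor for the complement fragment C3a, was at 5.78, 3.80 and 3.62 CPM in control and 58.3, 39.7 and 27.7 CPM in asthma (3.25 ± 0.35, adjusted p = 0.00238). For Cybb the 3 asthma libraries lay close together and asthma replicate 3 was within them, unlike most called genes. In the membrane-spanning 4A family 6 of 12 tested genes rose, among them Ms4a6d (2.90 ± 0.35). Mmp12, the macrophage elastase, was at 7.08, 5.73 and 6.81 CPM in control and 992, 1217 and 77.5 CPM in asthma (6.86 ± 1.57, adjusted p = 0.0311). Spp1, the secreted phosphoprotein osteopontin, was at 32.9, 38.5 and 39.2 CPM in control and 1298, 903 and 159 CPM in asthma (4.42 ± 0.74, adjusted p = 0.0109). These last genes rested more on asthma replicates 1 and 2, and the call was lost for Mmp12 without any control or asthma replicate 1 or 2 (adjusted p = 0.0928 to 0.136) and for Spp1 without control replicate 2 or 3 or asthma replicate 2 (adjusted p = 0.0541 to 0.0596), while Cybb, C3ar1 and Ms4a6d were called in all 9 fits. In bulk tissue more cells of a type and more RNA per cell cannot be told apart, and the same holds for falls.

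Chemokines, the secreted attractants of leukocytes, had the highest share of risen members among the 40 gene families examined. Of 32 tested, 17 rose and none fell, with a median of 2.33. With the length offset 16 rose. Cxcl5, a ligand of the neutrophil receptor CXCR2 made by alveolar epithelium, was at 0.378, 0.468 and 1.28 CPM in control and 41.5, 28.0 and 6.81 CPM in asthma (5.14 ± 0.88, adjusted p = 0.0114). Cxcl3, another CXCR2 ligand, was at 0.324, 0.351 and 0.479 CPM in control and 10.02, 13.2 and 28.4 CPM in asthma (5.46 ± 0.86, adjusted p = 0.00951). For Cxcl3 asthma replicate 3 was the highest library, the reverse of the usual order. Cxcl17, a chemokine of mucosal epithelium, rose by 2.21 ± 0.31 and Ccl7, a ligand of CCR2, by 4.91 ± 0.81. Of the markers of neutrophils, the cells that CXCR2 ligands attract, 0 of 11 tested passed, beside 12.7% of all genes. With so few members 0 calls is not far from that share. Of these markers 7 had a positive and 4 a negative log2 fold change, and limma voom with library quality weights called 1 higher. The summed level of these markers was 498, 807 and 204 CPM in control and 642, 374 and 456 CPM in asthma. The count of chemokines ran from 8 (without control replicate 2) to 19 (without asthma replicate 3 or BSYQF replicate 1) when 1 library was left out. Cxcl17 was called in all 9 of these fits, and the call was lost for Cxcl3 and Ccl7 without control replicate 2 (adjusted p = 0.0505 to 0.0596) and for Cxcl5 without control replicate 2 or asthma replicate 2 (adjusted p = 0.051 to 0.0665).

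Of 23 chemokine receptors tested, 6 rose and 2 fell. Ccr10, a receptor of antibody-secreting cells that home to mucosa, was at 0.919, 1.23 and 1.06 CPM in control and 4.64, 8.34 and 5.87 CPM in asthma (2.54 ± 0.34, adjusted p = 0.00435). The monocyte receptor Ccr2 rose by 1.41 ± 0.24. Ackr4, a scavenger of CCL19 and CCL21, fell by 1.70 ± 0.36 on the log2 scale, from 9.78, 23.6 and 23.1 to 6.90, 4.30 and 6.14 CPM. The receptors of eosinophils and T cells that are typical of allergy, Ccr3 (0.84 ± 0.83, adjusted p = 0.491), Ccr4 (0.25 ± 0.52, adjusted p = 0.759) and Ccr8 (-0.74 ± 0.60, adjusted p = 0.408), did not pass. Ccr10 was called in all 9 fits that left out a library, and the call was lost for Ccr2 without control replicate 2 or asthma replicate 1 (adjusted p = 0.0519 to 0.0543) and for Ackr4 without control replicate 2 or 3 or asthma replicate 1 or 2 (adjusted p = 0.0641 to 0.0856).

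Cytokine genes and their receptors rose in a minority of members. Of 53 interleukins and receptors tested, 7 rose and none fell. The 13.2% called is near the 12.7% of all genes. Il1rn, the natural antagonist of the interleukin 1 receptor, was at 7.997, 10.9 and 6.70 CPM in control and 134, 104.7 and 42.8 CPM in asthma (3.46 ± 0.44, adjusted p = 0.0042). In the TNF receptor and ligand superfamilies 10 of 32 tested rose and 1 fell. Tnfrsf9, the costimulatory receptor 4-1BB of activated T cells, was at 1.24, 0.761 and 2.18 CPM in control and 20.7, 21.7 and 10.8 CPM in asthma (3.65 ± 0.42, adjusted p = 0.00293). Tnfrsf8, the receptor CD30 of activated lymphocytes, rose by 2.96 ± 0.46. The 3 genes with values here were called in all 9 fits that left out a library, while the count of rises in the TNF families ran from 2 (without control replicate 2) to 12 (without asthma replicate 3). Of the general T cell and innate lymphoid markers 0 of 9 tested passed, beside 12.7% of all genes. With so few members 0 calls is not far from that share. DESeq2's Wald test called 1 of these markers lower. These markers summed to 204, 199 and 169 CPM in control and 165, 169 and 162 CPM in asthma. Cd3e was at 8.92, 15.4 and 8.67 CPM in control and 10.8, 8.87 and 6.81 CPM in asthma, and Il1rl1, the receptor for interleukin 33, at 7.94, 6.03 and 6.86 and 6.79, 8.74 and 7.35 CPM.

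DNA replication genes rose almost as a whole. Of 29 tested, 25 rose and none fell, with a median of 1.40 against 0.02 over all genes tested. The 6 subunits of the MCM complex, the helicase that opens the double helix ahead of the polymerases, all rose, from 0.69 for Mcm4 to 1.80 for Mcm6. Mcm6 was at 13.2, 14.9 and 14.8 CPM in control and 71.2, 49.1 and 29.4 CPM in asthma (1.80 ± 0.28, adjusted p = 0.00857). Mcm10, which helps load the polymerase, was at 0.973, 0.527 and 1.44 CPM in control and 8.66, 11.9 and 4.08 CPM in asthma (3.05 ± 0.48, adjusted p = 0.00885). Tk1, the thymidine kinase of the salvage pathway, was at 4.48, 4.45 and 4.42 CPM in control and 26.1, 28.9 and 10.9 CPM in asthma (2.30 ± 0.35, adjusted p = 0.00834). Asthma replicate 3 was above every control but lowest of the asthma libraries in these genes. Uhrf1, which carries DNA methylation to the daughter strands, rose by 2.85 ± 0.51 and Rrm2, a subunit of ribonucleotide reductase, by 2.46 ± 0.45. Orc1 (1.82 ± 0.55, adjusted p = 0.0522), Rfc3, Pola1 and Prim1 did not pass. With the length offset 23 rose. The count ran from 3 (without asthma replicate 1) to 28 (without asthma replicate 3) when a library was left out, and Mcm6, Mcm10 and Tk1 were called in all 9 of these fits. Removal ended the call for Mcm4 without any control or asthma replicate 1 or 2 (adjusted p = 0.0678 to 0.122), Uhrf1 without control replicate 2 or 3 or asthma replicate 1 (adjusted p = 0.051 to 0.0665) and for Rrm2 without control replicate 2 or 3 or asthma replicate 1 or 2 (adjusted p = 0.0527 to 0.0655).

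Mitosis genes rose in the same way. Of 32 kinetochore, spindle and cytokinesis genes tested, 21 rose and none fell (median 1.53). Ccna2, the cyclin of S phase and early mitosis, was at 1.89, 2.46 and 3.67 CPM in control and 15.3, 15.4 and 8.38 CPM in asthma (2.28 ± 0.37, adjusted p = 0.00954). Cdk1, the kinase that drives entry into mitosis, was at 4.16, 2.40 and 3.56 CPM in control and 23.2, 20.6 and 6.86 CPM in asthma (2.31 ± 0.45, adjusted p = 0.0137). Ndc80, the kinetochore protein that holds microtubules, rose by 2.14 ± 0.40, and Ube2c, the ubiquitin-conjugating enzyme of the anaphase-promoting complex, by 2.40 ± 0.54. All 32 had a positive log2 fold change, the smallest being Anln at 0.18 (adjusted p = 0.636). Histone genes, most of whose transcripts carry no poly(A) tail, were not called in any of 19 tested, beside 12.7% of all genes. The RNA selection is not given in the sources used here. With the length offset 19 mitosis genes rose. Their count ran from 1 (without control replicate 2) to 28 (without asthma replicate 3) when a library was left out, and Ccna2 was called in all 9 fits. Among the others it ended for Cdk1 without control replicate 2 or 3 or asthma replicate 1 or 2 (adjusted p = 0.051 to 0.0685), Ndc80 without control replicate 2 or asthma replicate 1 or 2 (adjusted p = 0.051 to 0.0652) and for Ube2c without any control or asthma replicate 1 or 2 (adjusted p = 0.0699 to 0.109).

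The promoters of these groups are shown because their members moved together. RefSeq promoter windows on GRCm38.p6, from 250 bases before to 50 after a gene's start, matched 24 of the 29 replication and 27 of the 32 mitosis genes. A site for E2F factors, searched as TTTCCCGC, TTTCGCGC, TTTGCCGC or TTTGGCGC on both strands, lay in the window of 11 of the 24 replication genes and 2 of the 27 mitosis genes, and in 2.60% of all 27025 genes with a window. The cell cycle genes homology region, TTTGAA on either strand, lay in 20 of the 27 mitosis genes and 3 of the 24 replication genes, and in 20.2% of all genes. The CCAAT box, CCAAT on either strand, lay in 20 of the 27 mitosis genes, 16 of the 24 replication genes and 41.1% of all genes. Among called members with a window, 8 of 20 replication genes had the E2F site and 12 of 17 mitosis genes the homology region. Orc1, Rfc3 and Pola1, which were not called, had the E2F site too. Whether a site goes with a rise was not tested. Shown are the 250 bases before the start, read toward the gene, for the 2 called replication genes with a site, a single window and the smallest p, and for 2 mitosis genes chosen likewise with both of their motifs. Capitals mark E2F matches in Mcm6 (chr1:128359706-128359955, minus strand) and Mcm5 (chr8:75109259-75109508, plus strand), and matches of the homology region and the CCAAT box in Cdk1 (chr10:69352913-69353162, minus strand) and Ube2c (chr2:164769679-164769928, plus strand). Where matches touch or overlap, 1 run of capitals covers them.
Mcm6: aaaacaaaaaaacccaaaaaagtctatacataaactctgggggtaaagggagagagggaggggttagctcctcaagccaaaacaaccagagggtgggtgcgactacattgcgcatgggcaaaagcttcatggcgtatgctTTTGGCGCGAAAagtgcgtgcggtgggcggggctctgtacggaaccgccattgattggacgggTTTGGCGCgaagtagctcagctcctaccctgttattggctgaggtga
Mcm5: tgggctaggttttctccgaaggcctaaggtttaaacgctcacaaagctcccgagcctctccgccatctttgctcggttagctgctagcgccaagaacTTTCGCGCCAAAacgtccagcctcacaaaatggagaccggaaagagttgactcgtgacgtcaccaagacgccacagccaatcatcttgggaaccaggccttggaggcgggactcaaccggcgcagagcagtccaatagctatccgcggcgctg
Cdk1: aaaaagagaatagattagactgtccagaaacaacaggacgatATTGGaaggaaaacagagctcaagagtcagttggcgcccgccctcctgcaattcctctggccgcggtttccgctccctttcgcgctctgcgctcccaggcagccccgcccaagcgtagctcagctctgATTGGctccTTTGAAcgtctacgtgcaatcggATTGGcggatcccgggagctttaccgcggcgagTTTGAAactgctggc
Ube2c: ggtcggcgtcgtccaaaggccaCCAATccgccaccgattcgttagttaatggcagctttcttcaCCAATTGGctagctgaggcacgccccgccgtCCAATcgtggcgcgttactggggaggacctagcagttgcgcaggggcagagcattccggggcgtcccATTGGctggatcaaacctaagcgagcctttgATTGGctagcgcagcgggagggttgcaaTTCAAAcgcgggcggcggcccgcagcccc

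Chaperones and translocation genes of the endoplasmic reticulum rose broadly. Of 31 tested, 21 rose and none fell (median 0.99), and the same number rose with the length offset. Sdf2l1, a subunit of the chaperone complex around BiP, was at 19.7, 15.2 and 15.9 CPM in control and 122, 101 and 43.9 CPM in asthma (2.39 ± 0.38, adjusted p = 0.00936). Sec11c, the catalytic subunit of the signal peptidase, was at 37.2, 37.0 and 45.8 CPM in control and 129, 188 and 80.0 CPM in asthma (1.72 ± 0.27, adjusted p = 0.00881). Edem1, which sends misfolded glycoproteins to degradation, was at 91.6, 90.0 and 79.1 CPM in control and 219.8, 253 and 153 CPM in asthma (1.26 ± 0.19, adjusted p = 0.00813). No asthma library overlapped a control in any of these. Hspa5, which encodes BiP, rose by 1.25 ± 0.25 and Hsp90b1, the chaperone GRP94, by 1.46 ± 0.28. Among stress-response genes downstream of the sensor PERK, Ddit3 (0.22 ± 0.24, adjusted p = 0.541), Trib3 (-0.12 ± 0.27, adjusted p = 0.789) and Atf4 (0.65 ± 0.26, adjusted p = 0.114) did not pass. These genes do not stand for that whole branch. A list with amino acid response genes, of which part rose, is given below with the metabolic genes. In the same libraries 10 of 12 classic plasma cell and 13 of 15 classic goblet cell markers, of cells rich in these chaperones, rose, and their part was not tested. The count ran from 3 (without control replicate 2) to 23 (without asthma replicate 3) when a library was left out, and Sdf2l1, Sec11c and Edem1 were called in all 9 fits. Calls ended for Hspa5 without any control or asthma replicate 1 or 2 (adjusted p = 0.0527 to 0.0784) and for Hsp90b1 without control replicate 2 or 3 or asthma replicate 1 or 2 (adjusted p = 0.051 to 0.0677).

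The endoplasmic reticulum stress element, the site through which ATF6 acts, was searched as CCAAT and CCACG spaced by 9 bases of any letter, on both strands, and so contains a CCAAT box. It lay in the windows of 8 of the 26 members with a window (Hspa5, Hsp90b1, Pdia6, Calr, Canx, Dnajc3, Creld2 and Syvn1), and in 0.137% of all genes. Of these 8, all except Dnajc3 (0.21 ± 0.13, adjusted p = 0.275) rose. Of all 26 members with a window 16 rose, so members without the element rose too. Whether the element goes with a rise was not tested. The unfolded protein response element TGACGTGG lay in none of the 26 windows and in 0.714% of all genes. A match or its lack describes these letters only. Shown in the same way, with the element in capitals, are the 3 called members with a match, a single window and the smallest p: Pdia6, a protein disulfide isomerase (chr12:17266339-17266588, plus strand), Creld2, a secreted chaperone (chr15:88819396-88819645, plus strand, where the element reads on the opposite strand), and Hsp90b1 (chr10:86705445-86705694, minus strand, with 2 elements in opposite directions).
Pdia6: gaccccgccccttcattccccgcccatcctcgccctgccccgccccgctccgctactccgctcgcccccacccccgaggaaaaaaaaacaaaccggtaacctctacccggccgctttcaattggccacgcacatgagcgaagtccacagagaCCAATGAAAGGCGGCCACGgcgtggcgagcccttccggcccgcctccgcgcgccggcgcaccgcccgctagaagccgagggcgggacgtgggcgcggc
Creld2: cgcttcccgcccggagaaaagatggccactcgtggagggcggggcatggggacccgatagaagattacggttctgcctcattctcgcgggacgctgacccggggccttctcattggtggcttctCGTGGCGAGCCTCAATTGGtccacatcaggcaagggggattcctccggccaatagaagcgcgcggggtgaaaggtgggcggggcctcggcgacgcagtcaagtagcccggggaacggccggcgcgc
Hsp90b1: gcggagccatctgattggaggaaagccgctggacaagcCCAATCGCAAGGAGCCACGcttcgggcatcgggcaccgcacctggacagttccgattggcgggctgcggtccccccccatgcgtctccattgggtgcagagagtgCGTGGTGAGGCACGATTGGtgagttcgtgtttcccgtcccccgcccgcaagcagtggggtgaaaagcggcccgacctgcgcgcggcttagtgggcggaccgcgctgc
Pdia6 was at 253, 239 and 263 CPM in control and 713, 593 and 413 CPM in asthma (1.19 ± 0.20, adjusted p = 0.00969), and Creld2 at 49.6, 32.1 and 42.1 and 225, 251 and 100.4 CPM (2.22 ± 0.40, adjusted p = 0.0122). The call was lost for Pdia6 without control replicate 2 (adjusted p = 0.0505), Creld2 without control replicate 2 or 3 or asthma replicate 1 or 2 (adjusted p = 0.051 to 0.0635), Calr without any control or asthma replicate 1 or 2 (adjusted p = 0.0788 to 0.127) and for Canx and Syvn1 without any control, asthma replicate 1 or 2 or BSYQF replicate 2 (adjusted p = 0.0574 to 0.162).

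Among metabolic genes, in glycolysis 5 of 20 rose and 16 were above 0 (median 0.47), among them Slc16a3, the lactate exporter MCT4, at 20.7, 28.9 and 22.7 CPM in control and 53.7, 49.1 and 42.2 CPM in asthma (1.003 ± 0.17, adjusted p = 0.01). Pgk1 rose by 1.27 ± 0.25 and Ldha, lactate dehydrogenase A, by 0.84 ± 0.18, while the glucose transporter Slc2a1 (0.55 ± 0.24, adjusted p = 0.133) did not pass. In the list of serine, one-carbon and amino acid response genes 4 of 19 rose and 15 were above 0 (median 0.34). Mthfd2, the mitochondrial folate enzyme of dividing and activated cells, was at 4.65, 4.68 and 5.69 CPM in control and 25.3, 36.1 and 10.2 CPM in asthma (2.25 ± 0.39, adjusted p = 0.0101). Of 22 cholesterol genes only Cyp51 passed (1.03 ± 0.27), though 18 were above 0, and of 21 fatty acid genes Ucp2 rose (0.69 ± 0.21) and Fabp3 fell (-1.83 ± 0.52). The shares called in the last 2 lists were near or under the 8.23% and 4.45% of all genes. When a library was left out the count of rises ran from 0 (without asthma replicate 1) to 12 (without asthma replicate 3) in glycolysis. It ran from 0 (without control replicate 2 or asthma replicate 1) to 6 (without asthma replicate 3) in the serine, one-carbon and amino acid response list. The call was lost for Slc16a3 without asthma replicate 1 (adjusted p = 0.0559), Mthfd2 without control replicate 2 or asthma replicate 1 (adjusted p = 0.0505 to 0.051), Pgk1 without control replicate 1 or 2 or asthma replicate 1 or 2 (adjusted p = 0.0533 to 0.0689), Ldha without any control or asthma replicate 1 or 2 (adjusted p = 0.0631 to 0.0946), Cyp51 without any control, asthma replicate 1 or 2 or BSYQF replicate 2 (adjusted p = 0.0575 to 0.149), Ucp2 without any control, asthma replicate 1, 2 or 3 or BSYQF replicate 2 (adjusted p = 0.0512 to 0.183) and for Fabp3 without any control, asthma replicate 1 or 2 or BSYQF replicate 2 or 3 (adjusted p = 0.05 to 0.159).

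Part of the iron and lysosome genes rose. Of 20 iron and haem genes 9 rose and none fell (median 1.02). Besides Lcn2 and Cp, Steap4, a metalloreductase, was at 60.2, 37.4 and 34.0 CPM in control and 213, 167 and 145 CPM in asthma (1.998 ± 0.25, adjusted p = 0.0042). Slc11a1, the metal exporter of the phagosome membrane, was at 8.54, 12.1 and 7.18 CPM in control and 57.2, 44.0 and 20.4 CPM in asthma (2.13 ± 0.35, adjusted p = 0.00987). Ftl1, the ferritin light chain that stores iron, was at 1450.0, 1162 and 1349 CPM in control and 4492, 4982 and 2240.0 CPM in asthma (1.56 ± 0.36, adjusted p = 0.0258). The iron exporter Slc40a1 (-0.23 ± 0.30, adjusted p = 0.609) and the transferrin receptor Tfrc (0.29 ± 0.21, adjusted p = 0.359) did not pass. Of 26 lysosome genes 10 rose and none fell, with Cd63, a membrane tetraspanin, at 141, 104 and 147 CPM in control and 571, 561 and 290.4 CPM in asthma (1.86 ± 0.36). The structural membrane proteins Lamp1 (-0.12 ± 0.16, adjusted p = 0.62) and Lamp2 (0.04 ± 0.13, adjusted p = 0.848) did not pass. Haemoglobin and other red cell genes did not pass in any of 8 tested, beside 12.7% of all genes. With so few members 0 calls is not far from that share. The red cell genes had a sum of 2013, 3235 and 3020.5 CPM in control and 817, 1118 and 2412 CPM in asthma, and their part in the iron genes was not tested. The iron count ran from 4 (without control replicate 2 or asthma replicate 2) to 10 (without asthma replicate 3 or BSYQF replicate 1 or 3) and the lysosome count from 0 (without control replicate 2 or asthma replicate 1) to 15 (without asthma replicate 3) when a library was left out, and Steap4 and Slc11a1 were called in all 9 fits. It was lost for Ftl1 without any control or asthma replicate 1 or 2 (adjusted p = 0.0713 to 0.11) and for Cd63 without control replicate 2 or asthma replicate 1 or 2 (adjusted p = 0.0614 to 0.0693).

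Genes of protein synthesis and turnover, many of them short, were called higher more often without than with the length offset. Of 80 cytosolic ribosomal protein genes 16 rose and none fell (median 0.55), but only 5 rose with the length offset, near the 6.69% of all genes called higher in that fit. They took 1.17, 1.18 and 1.29% of the counts in control and 1.599, 1.70 and 1.35% in asthma. Rplp0, the stalk protein of the large subunit, was at 198, 175 and 203 CPM in control and 407, 502 and 273 CPM in asthma (1.04 ± 0.22, adjusted p = 0.0192). Of 75 mitochondrial ribosomal protein genes 9 rose (7 with the offset), and of 37 proteasome subunits 8 rose (5 with the offset). Of all genes 8.23% were called higher, and 6.69% with the offset. Of 45 nuclear genes of respiratory complex I, Ndufa12 and Ndufa3 passed, neither with the offset, with which 1 gene was lower. The 4.44% of complex I genes called without the offset is under the 8.23% of all genes called higher. Of 16 heat shock genes the mitochondrial chaperonins Hspd1 (0.68 ± 0.17) and Hspe1 (1.02 ± 0.25) rose, 12.5% of the list. With the offset 1 gene of the list was higher and 1 lower. None of the 12 mitochondrially encoded genes tested passed, though all were positive (median 1.38). Their median stood 1.07, 2.10 and 0.56 above the control mean in asthma replicates 1, 2 and 3. The cytosolic ribosomal count ran from 0 (without any control or asthma replicate 1 or 2) to 35 (without asthma replicate 3) when a library was left out, and calls were lost for Rplp0 without any control or asthma replicate 1 or 2 (adjusted p = 0.0568 to 0.0883) and for Hspd1, Hspe1, Ndufa12 and Ndufa3 without any control, asthma replicate 1 or 2 or BSYQF replicate 2 (adjusted p = 0.0504 to 0.168).

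**Figure D4:**
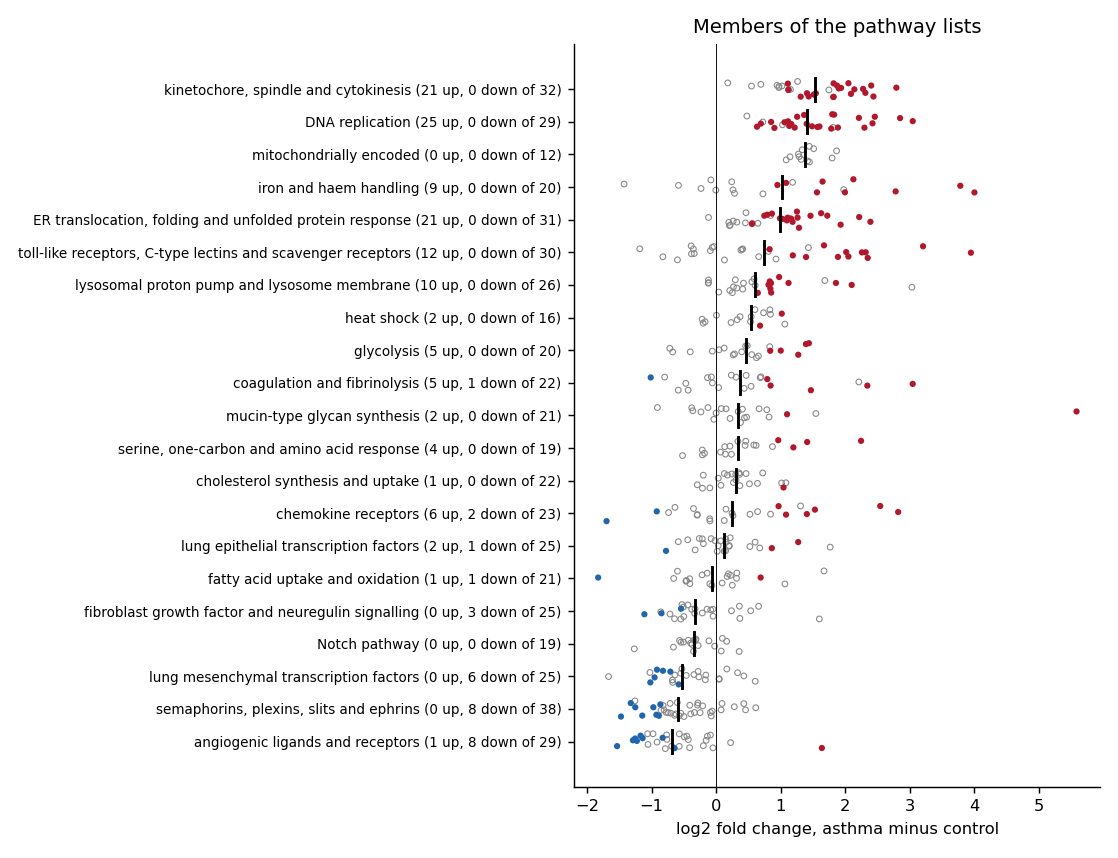
Each row is 1 of the 21 pathway lists, ordered by median, with the log2 fold change of every tested member on the x axis; filled points passed the test (red higher, blue lower), open points did not, and the bar is the median. Mitosis, replication and endoplasmic reticulum genes lie to the right of 0 almost entirely, and mesenchymal, guidance and angiogenic genes mostly to the left.

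Vascular and developmental signalling genes fell in part. Of 29 angiogenic ligands and receptors 8 fell and 1 rose (median -0.69), and 6 fell and 1 rose with the length offset. Angpt1, the ligand that stabilises vessels through the receptor TIE2, was at 151.5, 138 and 125 CPM in control and 54.2, 43.6 and 90.1 CPM in asthma (-1.14 ± 0.24, adjusted p = 0.0202). Vegfd, a lymphatic growth factor, was at 138, 98.8 and 77.1 CPM in control and 41.5, 29.2 and 63.2 CPM in asthma (-1.23 ± 0.29, adjusted p = 0.0272). Apln, the apelin peptide of capillary cells, was at 43.6, 82.9 and 74.3 CPM in control and 17.7, 35.4 and 31.1 CPM in asthma (-1.25 ± 0.31, adjusted p = 0.0317). No asthma library reached the lowest control in these genes. The single riser was Pgf, placental growth factor, at 6.05, 3.69 and 5.32 CPM in control and 19.6, 17.1 and 10.4 CPM in asthma (1.64 ± 0.29, adjusted p = 0.0108). Markers of capillary endothelium summed to 3433, 4176 and 3734 CPM in control and 2672, 2013 and 3160 CPM in asthma. Of these markers 2 of 14 were called lower, beside 4.45% of all genes, and fewer cells and less RNA per cell cannot be told apart here. The count of falls ran from 0 (without control replicate 2 or asthma replicate 1 or 2) to 18 (without asthma replicate 3) when a library was left out, and the call was lost for Angpt1 without any control or asthma replicate 1 or 2 (adjusted p = 0.0503 to 0.0885), Vegfd without control replicate 1 or 2 or asthma replicate 1 or 2 (adjusted p = 0.0841 to 0.103), Apln without control replicate 2 or 3 or asthma replicate 1 or 2 (adjusted p = 0.0675 to 0.122) and for Pgf without control replicate 2 or asthma replicate 1 (adjusted p = 0.0554 to 0.0607).

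Guidance genes, first known from growing axons and also used by vessels and fibroblasts, fell in part. Of 38 semaphorins, plexins, slits and ephrins 8 fell and none rose, and 8 fell and 1 rose with the length offset. Sema3c, a secreted semaphorin, was at 342, 535 and 415 CPM in control and 168, 128 and 221 CPM in asthma (-1.32 ± 0.23, adjusted p = 0.0108). Robo2, a receptor for slits, was at 70.4, 44.3 and 33.3 CPM in control and 17.1, 13.8 and 22.2 CPM in asthma (-1.47 ± 0.32, adjusted p = 0.0216), and its ligand gene Slit3 fell by 1.25 ± 0.31 on the log2 scale. Of 25 mesenchymal transcription factors 6 fell and none rose (median -0.53), and 11 fell and 2 rose with the offset. Tbx4 (-0.71 ± 0.21) and Tbx5 (-0.58 ± 0.16), which set up the lung mesenchyme, were among the 6 falls, as were Zeb1 (-1.02 ± 0.23) and Snai2 (-0.95 ± 0.22). Fgf10, the mesenchymal signal for branching, was at 23.8, 20.5 and 19.8 CPM in control and 14.7, 14.7 and 14.6 CPM in asthma (-0.54 ± 0.16, adjusted p = 0.0492), and the receptor Fgfr4 fell by 1.11 ± 0.24 on the log2 scale. Of 19 Notch pathway genes none was called, beside 12.7% of all genes, with 15 below 0, and Notch3 at -1.27 ± 0.40 (adjusted p = 0.0603). When a library was left out the guidance count ran from 0 (without control replicate 2 or asthma replicate 1) to 18 (without asthma replicate 3) and the mesenchymal count from 0 (without control replicate 2 or 3 or asthma replicate 1 or 2) to 10 (without asthma replicate 3). Calls ended for Sema3c without control replicate 2 or asthma replicate 1 (adjusted p = 0.0505 to 0.0597), Robo2 without control replicate 1 or 2 or asthma replicate 1 or 2 (adjusted p = 0.0635 to 0.0924), Slit3, Tbx4 and Tbx5 without any control, asthma replicate 1 or 2 or BSYQF replicate 2 (adjusted p = 0.0507 to 0.166), Zeb1 and Snai2 without any control or asthma replicate 1 or 2 (adjusted p = 0.0527 to 0.106), Fgf10 without any control, asthma replicate 1 or 2 or BSYQF replicate 2 or 3 (adjusted p = 0.0507 to 0.163) and for Fgfr4 without control replicate 2 or 3 or asthma replicate 1 or 2 (adjusted p = 0.0648 to 0.0878).

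The 8 falls with the smallest p-values were taken among called genes with at least 5 CPM and no overlap, outside the classic lists. Of these 8, Bpifa1 is given above, and Srl and Specc1l stand with other gene groups. Ckm, a muscle creatine kinase, fell by 2.17 ± 0.36 on the log2 scale (call lost without asthma replicate 1, adjusted p = 0.0518). Chrdl1, which encodes a secreted antagonist of bone morphogenetic proteins, was at 50.4, 57.5 and 39.7 CPM in control and 7.19, 8.67 and 16.4 CPM in asthma (-2.19 ± 0.31, adjusted p = 0.00687). Pla2r1, the M-type phospholipase A2 receptor, was at 49.8, 42.7 and 39.3 CPM in control and 13.4, 11.9 and 20.1 CPM in asthma (-1.53 ± 0.24, adjusted p = 0.00873). Adra1a, an alpha-1 adrenergic receptor, was at 11.3, 11.9 and 8.57 CPM in control and 3.51, 3.63 and 3.23 CPM in asthma (-1.62 ± 0.27, adjusted p = 0.00969). In Chrdl1, Pla2r1 and Adra1a the groups did not overlap, as their choice required, and no removal of 1 library ended any of these 3 calls. The same held for Slc7a10, an exchanger of small neutral amino acids, at 34.5, 37.8 and 40.4 CPM in control and 13.4, 15.7 and 13.6 CPM in asthma (-1.40 ± 0.22, adjusted p = 0.00856). Scube2, named for the size of its fall, a secreted protein that releases hedgehog ligands, was at 92.0, 89.8 and 67.0 CPM in control and 12.3, 5.85 and 20.7 CPM in asthma (-2.67 ± 0.46, adjusted p = 0.0108), and the call was lost for Scube2 without control replicate 2 or asthma replicate 1 (adjusted p = 0.0505 to 0.0598). In mm10 coordinates Chrdl1, Pla2r1, Adra1a and Scube2, all protein coding, lie at chrX:143285674-143394262, chr2:60417543-60553308, chr14:66635251-66771168 and chr7:109798676-109865679.

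Genes that make and genes that break down cyclic GMP, the messenger through which nitric oxide relaxes vessels and airways, both fell. Gucy1a1 and Gucy1b1 encode the subunits of the soluble guanylyl cyclase that binds nitric oxide, and Pde5a a phosphodiesterase that breaks cyclic GMP down. Gucy1b1 was at 195, 270.1 and 244 CPM in control and 107, 81.5 and 169 CPM in asthma (-0.99 ± 0.24, adjusted p = 0.0305). Gucy1a1 was at 212, 313 and 240.2 CPM in control and 114, 62.1 and 159 CPM in asthma (-1.19 ± 0.30, adjusted p = 0.0346). Pde5a was at 205, 319.8 and 265 CPM in control and 159, 129.9 and 162 CPM in asthma (-0.81 ± 0.18, adjusted p = 0.0243). No library overlapped, though asthma replicate 3 stood nearest to control. In the whole family of phosphodiesterases and cyclases 6 of 31 fell and 1 rose (5 and 1 with the length offset). The cyclase subunits are also on the pericyte list, of which 4 of 13 members fell, with 12 of the 13 below 0 and a median log2 fold change of -0.78. The pericyte list summed to 1191, 1532 and 1273 CPM in control and 769, 520 and 942 CPM in asthma, and its part was not tested. The family count ran from 0 (without control replicate 2 or 3 or asthma replicate 1 or 2) to 13 (without asthma replicate 3) when a library was left out, and the call was lost for Pde5a without control replicate 2 or 3 or asthma replicate 1 or 2 (adjusted p = 0.0657 to 0.107) and for Gucy1a1 and Gucy1b1 without any control, asthma replicate 1 or 2 or BSYQF replicate 2 (adjusted p = 0.0507 to 0.13).

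Calls in families of adhesion and zinc finger genes were mostly falls. Of 67 cadherins and protocadherins 7 fell and 1 rose (5 and 1 with the length offset), and of 351 zinc finger genes 11 fell and 2 rose (5 and 1 with the offset). Both shares of zinc fingers are under the 4.45% and 8.23% of all genes. Of the cadherins and protocadherins 11.9% were called in either direction, near the 12.7% of all genes. Specc1l, a protein that links actin and microtubules, was at 283, 335 and 301 CPM in control and 113, 119.5 and 173 CPM in asthma (-1.18 ± 0.19, adjusted p = 0.00873), and was called in all 9 fits that left out a library and with the length offset. The abundant spectrin gene Sptbn1 (-0.997 ± 0.29, adjusted p = 0.0475) and Macf1, a giant crosslinker (-1.01 ± 0.23, adjusted p = 0.0232), were called here but not with the length offset, and the call was lost for Sptbn1 without any control, asthma replicate 1 or 2 or BSYQF replicate 2 (adjusted p = 0.074 to 0.152) and for Macf1 without any control or asthma replicate 1 or 2 (adjusted p = 0.0601 to 0.0941).

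In the list of clotting and fibrinolysis genes 5 of 22 rose and 1 fell. F7, coagulation factor VII, was at 15.1, 11.8 and 11.8 CPM in control and 71.8, 78.3 and 46.5 CPM in asthma (2.34 ± 0.49, adjusted p = 0.021), and F10, factor X, which it activates, at 5.94, 5.09 and 4.36 and 50.1, 60.3 and 17.3 CPM (3.05 ± 0.70, adjusted p = 0.0304). Thbd, thrombomodulin, an endothelial brake on clotting, was at 950.0, 849 and 831 CPM in control and 401, 294 and 608 CPM in asthma (-1.01 ± 0.23, adjusted p = 0.0254). The other risers were Thbs1, the matrix protein thrombospondin 1 (1.47 ± 0.37), Anxa2, a membrane protein that binds plasminogen (0.85 ± 0.22), and Plaur, the urokinase receptor (0.79 ± 0.21). Tissue factor, F3, which starts clotting with factor VII, did not pass (0.24 ± 0.23, adjusted p = 0.498). No call in the list was left without asthma replicate 1 or 2 or without any 1 control. The fits that lost any of these 6 calls gave adjusted p = 0.0507 to 0.151.

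Genes of heart muscle and fat were among the largest falls in the same set of genes. The heart genes include Nppa, the atrial natriuretic peptide, at 15.6, 55.5 and 58.9 CPM in control and 0.623, 1.08 and 0.448 CPM in asthma (-5.96 ± 1.5001, adjusted p = 0.0392), and Mb, myoglobin, at 19.1, 16.3 and 43.0 and 1.58, 2.42 and 1.70 CPM (-3.79 ± 0.76, adjusted p = 0.0197). Srl, sarcalumenin of the muscle calcium store, was at 17.7, 11.3 and 19.3 CPM in control and 4.02, 2.96 and 3.68 CPM in asthma (-2.18 ± 0.33, adjusted p = 0.00813). All asthma libraries lay below all controls in these genes, as their choice required. Nppa was not called with the length offset (edgeR adjusted p = 0.0535). Of 12 cardiac markers 11 fell, the sum of the list being 588, 481 and 1093 CPM in control and 138, 143 and 252 CPM in asthma. Cardiac-type muscle sheathes the pulmonary veins of mice, and heart tissue can be taken with the lung, and these cannot be told apart. Fat genes were as far apart: Car3, a carbonic anhydrase of fat and muscle, was at 395, 129 and 76.5 CPM in control and 3.74, 1.88 and 7.84 CPM in asthma (-5.44 ± 0.89, adjusted p = 0.0108), and Thrsp, a regulator of fat synthesis, at 131, 81.3 and 29.5 and 3.34, 7.19 and 7.58 CPM (-3.74 ± 0.69, adjusted p = 0.0155). Adipocyte markers summed to 370, 145 and 81.7 CPM in control and 10.8, 16.1 and 26.6 CPM in asthma, so the controls themselves differed more than 4-fold. The share of fat or heart in each sample was not measured. Mesothelial markers summed to 613, 346 and 311 CPM in control and 202, 76.5 and 275 CPM in asthma, with 1 of 9 called, beside 12.7% of all genes. Srl was called in all 9 fits that left out a library, and the call was lost for Car3 without asthma replicate 1 or 2 (adjusted p = 0.0624 to 0.0651), Thrsp without control replicate 2 or asthma replicate 1 or 2 (adjusted p = 0.0575 to 0.0869), Mb without control replicate 2 or 3 or asthma replicate 1 or 2 (adjusted p = 0.0545 to 0.096) and for Nppa without any control or asthma replicate 1, 2 or 3 (adjusted p = 0.0711 to 0.154).

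**Figure D5:**
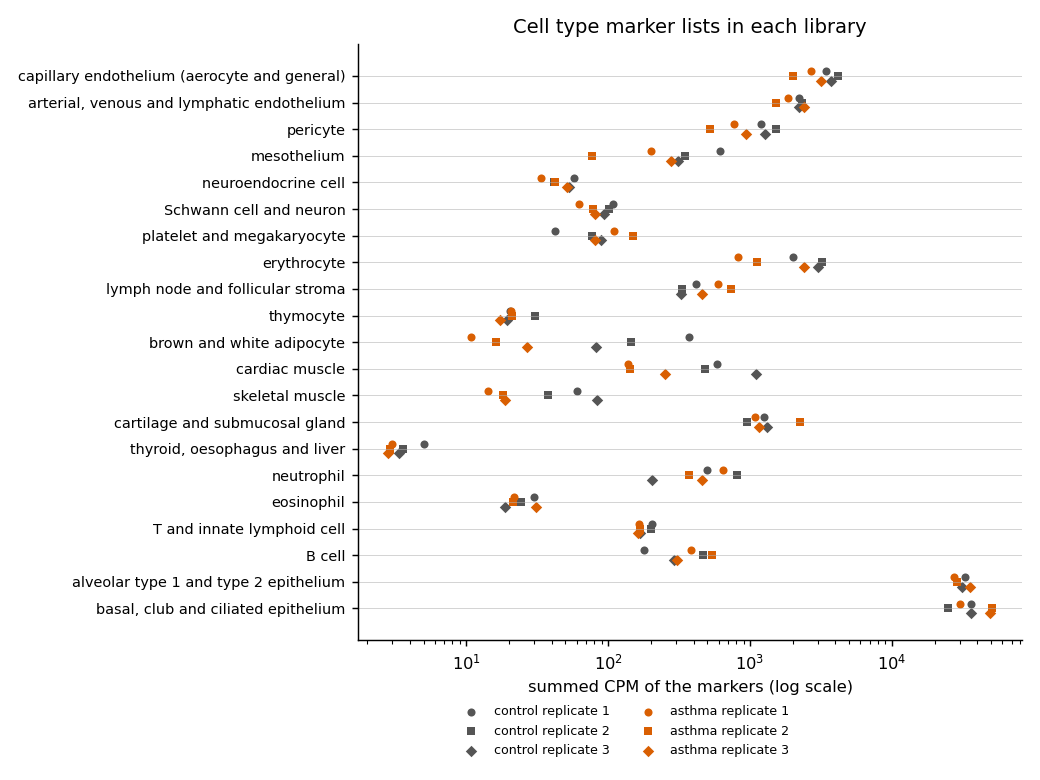
Each row is 1 of the 21 cell type marker lists, with the summed CPM of its markers in each of the 6 libraries on a log scale, control in grey and asthma in orange. Adipocyte, cardiac muscle, skeletal muscle, capillary, pericyte, mesothelial, and Schwann cell and neuron sums of all asthma libraries lie below all controls. So do the low sums of thyroid, oesophagus and liver markers. Lymph node and follicular stroma sums of all asthma libraries lie above all controls. The other sums overlap, among them neutrophil, eosinophil, T cell and alveolar.

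Markers of eosinophils, cells typical of allergic inflammation, gave 0 calls among 6 tested, beside 12.7% of all genes. With so few members 0 calls is not far from that share. Of the 6 markers, 4 had a positive log2 fold change, the highest 2.99, and 2 a negative one. DESeq2's Wald test called 1 marker higher, and so did limma voom with library quality weights. The list summed to 29.9, 24.3 and 18.8 CPM in control and 21.7, 21.4 and 30.9 CPM in asthma, and Prg3 and Ear6 had no count in any of the 6 libraries. Siglecf was at 3.57, 6.03 and 4.58 CPM in control and 6.06, 2.96 and 6.01 CPM in asthma (adjusted p = 0.881). Of the basal cell keratins, Krt5 had 38, 40 and 52 counts in control and 4, 2 and 1 in asthma and Krt15 66, 89 and 113 and 2, 6 and 17. Both were called lower (adjusted p = 0.00715 and 0.01), also in all 9 fits that left out a library. They were the only falls among 15 keratins tested, none of which rose, so 13.3% were called, beside 12.7% of all genes. Of the 13 basal, club and ciliated cell markers tested, 2 rose and only these 2 fell. The basal cell markers Krt14 and Trp63 were thus not called lower. Of 25 epithelial transcription factors Elf3, a factor of inflamed epithelium, rose (1.27 ± 0.27), as did Foxj1, the factor of ciliated cells (0.86 ± 0.23), and Gata6 fell (-0.78 ± 0.21). These shares are near the 8.23% and 4.45% of all genes, while Nkx2-1, the master factor of lung epithelium, was at 209, 188 and 248 CPM in control and 209, 302 and 239.7 CPM in asthma (adjusted p = 0.465). The call was lost for Elf3 without control replicate 2 or 3 or asthma replicate 1 or 2 (adjusted p = 0.051 to 0.0878) and for Foxj1 and Gata6 without any control, asthma replicate 1 or 2 or BSYQF replicate 2 (adjusted p = 0.0603 to 0.156) when a library was left out. Foxj1 was also not called with the length offset (edgeR adjusted p = 0.0543).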

How the data were processed

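Per the labels' protocols, libraries were made from 3 µg of total lung RNA extracted with Trizol, using an NEBNext Ultra kit. The sources used here do not give the strand setting of the counting. Counts of reads per gene were deposited by the authors in 1 table of all 9 libraries. FastQC, cutadapt, STAR, HTSeq, DESeq2 and the mm10 build are named, per the submitters' processing notes, without versions or annotation. A further 36 columns of per-library values and the authors' comparison tables were not used.

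Of 21983 genes in the table, 14739 passed edgeR's filterByExpr. Counts were scaled by TMM and tested with edgeR 4.0.16 (quasi-likelihood test, robust, R 4.3.3) in 1 model of the 3 groups, with the asthma minus control contrast and Benjamini-Hochberg adjustment. The BSYQF libraries shared in the filter, the scaling and the estimate of the spread (biological coefficient of variation 0.244). CPM are TMM-scaled. The standard error is the log2 fold change divided by the root of F. Alternatives used limma 3.58.1 and DESeq2 1.42.0. The fitting script was tested on simulated data. Depth was 16286385 to 22819199 counts per library.

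The 21 pathway, 21 marker and 3 classic lists (797 genes, 782 in the table, 731 tested), the 40 families and the members were chosen with earlier results of these data known. Named are the 15 largest rises and falls, the 8 smallest p and the 5 highest levels in each direction among called genes with at least 5 CPM and no overlap, the 4 smallest p per list and 2 per family and direction. Other list members, called or not, were added after their values were seen, for their known roles, and some genes and 1 family that the rule names are not reported here. Exon lengths and coordinates came from GENCODE vM21 (GRCm38) by symbol for 14683 genes, and promoters from RefSeq (GRCm38.p6). Genes in families of near-identical copies (Saa, Mcpt, Rnase2, haemoglobins, ribosomal proteins) are uncertain, as are overlapping genes.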

Additional observations from a re-analysis of the deposited data

How the results depend on the processing

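The main count of 1869 genes (1213 higher, 656 lower, 1012 at least 2-fold) moved by more than 1.5 times in some fits. DESeq2's Wald test called 3212 genes, 1780 higher and 1432 lower, and limma voom called 1278, with 744 higher. With library quality weights in voom, added after seeing the data, it was 4935 genes, 2657 higher, 2278 lower and 1800 at least 2-fold. Leaving out 1 library gave 171 to 4262 genes, 142 to 2212 higher, 20 to 2050 lower and 159 to 2094 at least 2-fold, highest without asthma replicate 3 and lowest without asthma replicate 1, or for higher calls without control replicate 2. The cause of these shifts was not tested, other than that fewer libraries enter each such fit. The counts stayed within 1.5 times with DESeq2's size factors (1833), without mitochondrially encoded genes (1885), without the filter (1772), with the newer quasi-likelihood method (1944), with only the 6 asthma and control libraries (1986) and with the length offsets (1534), also added after seeing the data. Of the 155 genes named, 129 were called, 45 of these in all 9 fits that left out a library and 47 in at most 4. With the length offsets 8 of the named genes lost their call.

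A sign changed only in genes that were not called. With 1 library left out, the log2 fold change ran from -0.15 to 0.51 for Ccr4, -0.51 to 0.0033 for Cd3e, -0.057 to 0.37 for F3, -0.025 to 0.083 for Lamp2, -0.088 to 0.33 for Siglecf, -0.48 to 0.14 for Slc40a1, -0.25 to 0.12 for Tlr4 and -0.28 to 0.053 for Trib3. With quality weights Ccr4 was at -0.15 and Tlr4 at 0.035, and with length offsets Siglecf was at -0.066.

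The replicate numbers did not pair the libraries: deviations of same-numbered control and asthma libraries correlated at -0.013, -0.098 and -0.141, and no control correlated best with its own number. With the replicate number as a block 1469 genes were called, 908 higher, 561 lower and 942 at least 2-fold. Among the 155 named genes 9 lost and 1 gained a call under this block. A count of 3 corresponds to 0.135 to 0.202 CPM in these libraries, so differences below that level were not detectable.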

Other observations

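Transporters, channels and sterol enzymes add values to those above. Of 275 solute carriers tested, 27 were higher in asthma and 6 lower, near the 8.23% and 4.45% of all genes or under them. Slc5a1, the sodium-coupled glucose transporter, was at 8.65, 5.67 and 5.91 CPM in control and 23.5, 37.4 and 19.8 CPM in asthma (1.99 ± 0.26, edgeR adjusted p = 0.0042), and Slc5a8, a sodium-coupled carrier of short-chain fatty acids, had 27, 32 and 13 counts in control and 0, 0 and 2 in asthma. Among channels, Kcnn4, a calcium-gated potassium channel of immune and epithelial cells, was at 6.32, 7.37 and 8.09 CPM in control and 31.5, 33.5 and 14.8 CPM in asthma (1.87 ± 0.32, adjusted p = 0.01). Cacna1s, a calcium channel subunit known from skeletal muscle, was at 2.43, 1.46 and 1.70 CPM in control and 8.603, 17.3 and 5.42 CPM in asthma (2.47 ± 0.43, adjusted p = 0.0108). In the skeletal muscle list 3 of 6 genes fell, among them Acta1 (-3.96) and Ckm (-2.17), and Pvalb rose from 1, 0 and 0 counts in control to 21, 28 and 8 in asthma.

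Of 37 cytochrome P450 genes 3 were higher and 3 lower, beside 8.23% and 4.45% of all genes. Cyp7b1, the oxysterol 7-alpha hydroxylase, was at 7.19, 4.45 and 4.15 CPM in control and 36.7, 24.7 and 13.4 CPM in asthma (2.24 ± 0.35, adjusted p = 0.00873), and Cyp27a1, the sterol 27-hydroxylase, at 25.2, 25.2 and 29.2 and 8.72, 8.87 and 18.4 CPM (-1.14 ± 0.27, adjusted p = 0.0272). Gpr65, an acid-sensing receptor of leukocytes, was at 6.16, 6.08 and 5.43 CPM in control and 20.2, 21.5 and 15.8 CPM in asthma (1.70 ± 0.21, adjusted p = 0.0042), with the asthma libraries close together. Nxpe5, a gene with little known function, was at 0.756, 1.17 and 0.851 CPM in control and 8.38, 8.94 and 8.34 CPM in asthma (3.20 ± 0.33, adjusted p = 0.00238), among the smallest p-values of all genes. Slc5a1, Cyp7b1, Gpr65 and Nxpe5 were called in all 9 fits that left out a library, and the call was lost for Pvalb and Cyp27a1 without any control or asthma replicate 1 or 2 (adjusted p = 0.0649 to 0.102), Cacna1s without control replicate 2 (adjusted p = 0.0536), Kcnn4 without control replicate 2 or asthma replicate 1 (adjusted p = 0.0505 to 0.0518), Slc5a8 without control replicate 2 or asthma replicate 1 or 2 (adjusted p = 0.0522 to 0.0632), Acta1 without control replicate 1 or 3 or asthma replicate 1 or 2 (adjusted p = 0.0599 to 0.0744) and for Ckm without asthma replicate 1 (adjusted p = 0.0518).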
